A study of Homo sapiens with 12 samples.

Results

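Mitochondrial ribosomal protein genes were followed in SUDHL6, an established human cell line of germinal-centre diffuse large B-cell lymphoma. The members were all gene symbols of the count tables that begin with MRPL or MRPS and a digit and that reached at least 1 CPM (a gene's share of the counts of its library, scaled to a common total) in 3 or more of the 12 libraries. Of 23368 symbols, 79 carried such a name and 77 met the expression rule, 49 of them MRPL and 28 MRPS. The members comprised 75 protein-coding genes (47 MRPL, 28 MRPS), the antisense RNA MRPL23-AS1 and the pseudogene MRPL42P5. The other 2 symbols were MRPS24, at a mean of 0.0592 CPM, and MRPL45P2, at 0.158 CPM, and neither entered a member count. In the GENCODE v29 annotation the exons of MRPS24 overlap those of the read-through gene URGCP-MRPS24 on the same strand, and reads of the pair cannot be told apart.

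The 4 groups were SUDHL6 cells given 200 nM GSK591 for 24 h, their vehicle (DMSO) cells at 24 h, cells given 200 nM GSK591 for 96 h, and their vehicle cells at 96 h, with 3 libraries each. GSK591 is a small-molecule inhibitor of PRMT5, the enzyme that places symmetric dimethyl marks on arginines of histones and splicing proteins. Poly(A) RNA was sequenced. The labels do not state whether the libraries of a group are from separate cultures, and the p-values therefore measure only the spread between these libraries, which may be technical. All groups come from 1 cell line. In bulk RNA, fewer cells that express a gene and less of its RNA per cell cannot be told apart. CPM values are shares of a library, so amounts of RNA per cell were not measured.

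Mitochondrial ribosomes translate the few proteins encoded by mitochondrial DNA, which are core subunits of the respiratory chain and ATP synthase. Their ribosomal RNAs come from the mitochondrial genome, while all of their proteins are encoded in the nucleus, made in the cytosol and imported. MRPL names mark the large subunit, where peptide bonds form, and MRPS names the small subunit, where the messenger RNA is read. Some proteins descend from bacterial ribosomal proteins and others were added in mitochondria. A subset of diffuse large B-cell lymphomas is known for high expression of oxidative phosphorylation and mitochondrial translation genes.

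Promoter sequences are shown for 5 members on which the results turn, taken from RefSeq (GRCh38.p14) from 250 bases before to 50 bases after the annotated start. MRPS27 and MRPS31 rose with GSK591 at 96 h, and MRPS25, MRPL12 and MRPL37 fell. The set was chosen after their values were seen. Capitals mark matches to 4 short motifs that were searched on both strands: the ETS core CCGGAAG, the YY1 core ATGGCGG, the NRF1 core TGCGCA and the E-box CACGTG. The last pair read the same on both strands and can share their CA. These motifs are the core letters bound by factors known for nuclear genes of mitochondrial proteins, and a match here describes letters, not binding.
MRPS27 (chr5:72320191-72320490, minus strand): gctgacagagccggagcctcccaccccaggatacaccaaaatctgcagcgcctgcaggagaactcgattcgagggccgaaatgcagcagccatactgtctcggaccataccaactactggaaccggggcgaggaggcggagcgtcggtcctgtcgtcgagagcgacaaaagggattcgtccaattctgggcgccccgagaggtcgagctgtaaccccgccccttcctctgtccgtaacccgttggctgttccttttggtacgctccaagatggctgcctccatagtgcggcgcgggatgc
MRPS31 (chr13:40771141-40771440, minus strand): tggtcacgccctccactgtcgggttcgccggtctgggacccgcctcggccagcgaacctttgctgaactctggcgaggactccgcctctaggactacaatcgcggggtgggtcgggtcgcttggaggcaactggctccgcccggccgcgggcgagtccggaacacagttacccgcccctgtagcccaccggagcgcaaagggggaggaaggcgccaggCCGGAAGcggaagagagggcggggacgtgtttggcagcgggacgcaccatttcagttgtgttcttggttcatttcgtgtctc
MRPS25 (chr3:15065266-15065565, minus strand): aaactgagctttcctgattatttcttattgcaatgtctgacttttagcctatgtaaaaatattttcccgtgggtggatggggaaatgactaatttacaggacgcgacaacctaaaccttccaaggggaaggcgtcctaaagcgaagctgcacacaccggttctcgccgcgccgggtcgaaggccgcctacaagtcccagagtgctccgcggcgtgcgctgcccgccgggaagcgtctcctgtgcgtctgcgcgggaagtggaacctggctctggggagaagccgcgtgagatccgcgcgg
MRPL12 (chr17:81703117-81703416, plus strand): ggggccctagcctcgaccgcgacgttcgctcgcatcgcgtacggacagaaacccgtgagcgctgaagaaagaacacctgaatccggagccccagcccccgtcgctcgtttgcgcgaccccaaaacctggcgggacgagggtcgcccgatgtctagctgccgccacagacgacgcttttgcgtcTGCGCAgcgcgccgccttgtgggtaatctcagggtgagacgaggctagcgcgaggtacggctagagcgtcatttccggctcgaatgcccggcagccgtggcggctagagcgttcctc
MRPL37 (chr1:54199917-54200216, plus strand): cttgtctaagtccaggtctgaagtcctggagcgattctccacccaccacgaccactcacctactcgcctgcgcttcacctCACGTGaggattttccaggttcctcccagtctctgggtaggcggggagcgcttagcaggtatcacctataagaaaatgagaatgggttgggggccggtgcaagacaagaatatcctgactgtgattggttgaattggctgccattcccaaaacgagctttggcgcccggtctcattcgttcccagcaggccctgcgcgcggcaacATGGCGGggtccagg
The windows of MRPS27, which rose, and MRPS25, which fell, held none of these motifs, the MRPS31 window held the ETS core, the MRPL12 window the NRF1 core, and the MRPL37 window the E-box and the YY1 core.

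A RefSeq window was matched for 67 of the 77 members. The ETS core was present in 29 of them, or 43.3%, against 22% of the 9253 genes tested at 96 h that had a window and 12.2% of the 27305 genes with a window. The YY1 core was present in 22 members, or 32.8%, against 12.3% of tested genes and 6.66% of all genes with a window. The NRF1 core was in 20.9% of members and 16.1% of tested genes, and the E-box in 13.4% of members and 12.6% of tested genes. The shares were alike in both subunits: the ETS core stood in 41.5% of MRPL windows and 46.2% of MRPS windows, and the YY1 core in 31.7% of MRPL and 34.6% of MRPS windows. Split by the response at 96 h described below, the ETS core was in 13 of the 31 windows of members that fell and in 15 of the 34 windows of members not called. For the NRF1 core these counts were 4 of 31 and 10 of 34, for the YY1 core 10 and 12, and for the E-box 3 and 6. Whether these shares differ was not tested.

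Vehicle replicate 1 at 96 h was sequenced to 547.9 M counts, and the other 11 libraries to between 48.5 and 64.4 M. No 2 libraries of a group agreed within sampling noise, with a chi-square per degree of freedom between 2.26 and 41.9. At 96 h the pairs that included GSK591 replicate 2 (33.1 and 41.9) or vehicle replicate 2 (17.5 and 25.7) stood above the other pairs of that time (3.05 and 9.56). The biological coefficient of variation was 2.35% at 24 h and 8.19% at 96 h. The 8 B-cell markers were between 158 and 4548 CPM in every library. Markers of other cell types (12 genes for T, myeloid, fibroblast and epithelial cells) summed to 1.58 to 2.74 CPM in GSK591 libraries at 96 h and 0.426 to 1.17 CPM in vehicle libraries at 96 h, with CD3D and DCN at 0 in all 12 libraries and no single marker above 1.25 CPM in any.

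All 75 coding members were present in every group, at mean levels from 7.24 CPM (MRPL1, of the L1 stalk) to 295.5 CPM (MRPS27, a small-subunit protein with RNA-binding repeats), with a median of 48.4 CPM. Per length, which allows genes to be compared, the median coding level was 30.5 CPM per kb of exon, and the range ran from 4.35 CPM per kb (MRPL42) to 108 CPM per kb (MRPS18B). The median was 30.8 CPM per kb over MRPL genes and 26.3 CPM per kb over MRPS genes. MRPS34 (88.9 CPM per kb) and MRPS27 (83.3 CPM per kb) were also near the top of this order, and MRPL1 (4.86 CPM per kb) near its foot. Among coding members, neither exon length (Spearman rho 0.05) nor mean level (rho -0.04) ordered the log2 fold changes at 96 h, a description across genes that share libraries and depth.

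The level of each subunit was followed as the geometric mean CPM of its coding members. For MRPL genes it was 48.9 ± 0.320 CPM in GSK591 cells and 48.7 ± 0.578 CPM in vehicle cells at 24 h (SD, n = 3 each), and 37.0 ± 1.39 CPM in GSK591 cells and 42.5 ± 1.29 CPM in vehicle cells at 96 h. For MRPS genes it was 53.1 ± 0.473 CPM in GSK591 cells and 53.5 ± 0.707 CPM in vehicle cells at 24 h, and 41.8 ± 1.29 CPM in GSK591 cells and 47.8 ± 1.77 CPM in vehicle cells at 96 h. At 96 h the libraries of the groups were separate: GSK591 libraries had MRPL means of 36.1, 36.3 and 38.6 CPM, against 41.7, 44.0 and 41.7 CPM in vehicle libraries, and MRPS means of 41.0, 41.1 and 43.3 CPM, against 46.8, 49.8 and 46.7 CPM. At 24 h the ranges of the groups overlapped for both subunits.

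At 96 h the ratio of MRPL to MRPS levels differed less between the groups than the levels did, while at 24 h the ratio separated the groups and the levels did not. The ratio follows gene names, and MRPS18A, MRPS30 and MRPS36 are counted in MRPS though their proteins are not in the small subunit. A ratio by place in structures was not taken, so small differences in this ratio do not describe the balance of the subunits. The log2 ratio of the MRPL to the MRPS geometric mean was -0.12 in GSK591 cells and -0.14 in vehicle cells at 24 h, and -0.18 in GSK591 cells and -0.17 in vehicle cells at 96 h, with SDs between 0.006 and 0.010. At 24 h the ratio in GSK591 libraries was above that in every vehicle library, as a difference between 0.921 and 0.910 on the linear scale. At 96 h the ranges overlapped, with linear ratios of 0.885 ± 0.006 in GSK591 cells and 0.889 ± 0.006 in vehicle cells (SD, n = 3 each). In each of the 12 libraries the ratio was below 1, without scaling by exon length. Per kb of exon the median was higher over MRPL than over MRPS genes (30.8 and 26.3 CPM per kb).

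**Figure D1:**
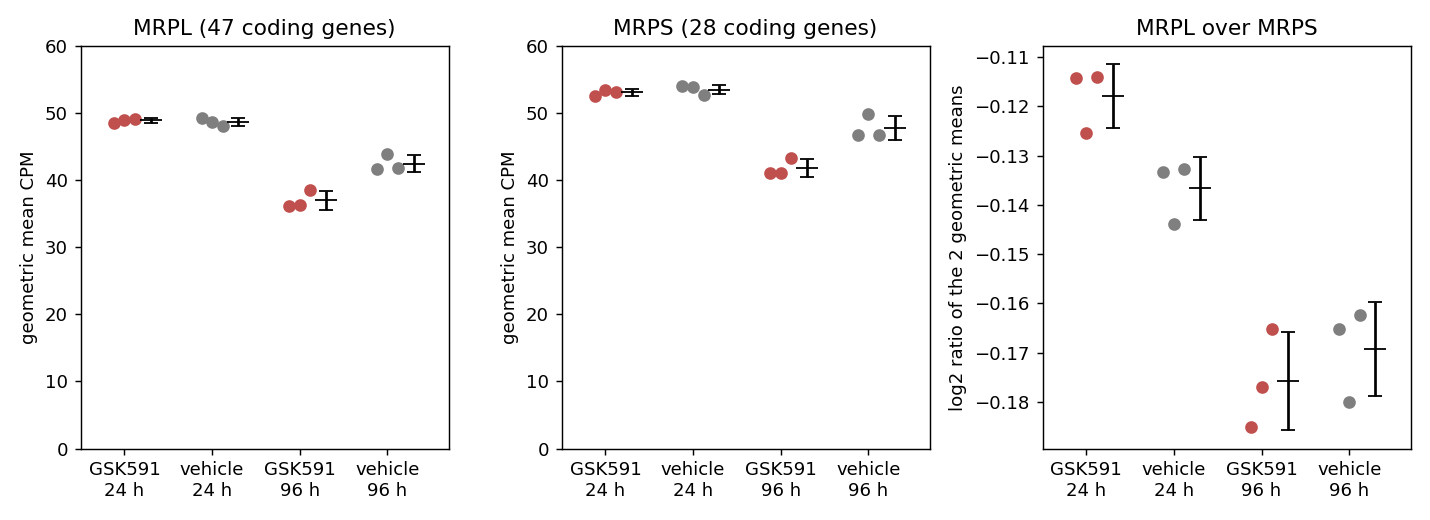
Levels of the subunits, by gene name, in each library. The left and middle panels give the geometric mean CPM of the 47 coding MRPL and 28 coding MRPS genes, and the right panel the log2 ratio of these means, on an axis that does not start at 0; points are libraries and bars the mean ± SD of 3. Both subunits sit lower in GSK591 than in vehicle libraries at 96 h, while the ratio overlaps there.

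At 24 h few members differed. In edgeR's quasi-likelihood test, 10 were past an adjusted p of 0.05: 2 MRPL and 2 MRPS members rose, and 2 MRPL and 4 MRPS members fell. The background at 24 h, over 13173 genes, was 14.7% called (7.44% higher, 7.29% lower), so the share among members (5.19% higher, 7.79% lower) was near the background. The median log2 fold change was 0.01 for MRPL, 0.01 for MRPS and 0.00 for all genes tested. The groups did not overlap for 9 MRPL and 10 MRPS members, against 31.9% of all genes. When all 12 libraries shared 1 estimate of the spread, no member was called at 24 h, and 29 of 13665 genes were. At an unadjusted p under 0.05 that fit had 3 members higher and 6 lower, beside 11.5% of all genes, and the fit of 24 h alone had 9 higher and 10 lower, beside 29% of all genes. DESeq2 called 3 members higher and 5 lower, beside 792 genes higher and 657 lower over all genes. The split also moved with scaling: by library size alone, 3 members were higher and 8 lower, beside 563 genes higher and 1220 lower overall. Without GSK591 replicate 3, the members that fell at 24 h numbered 3, where 508 of all genes fell, against 960 with all libraries.

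MRPS25, a small-subunit protein of mitochondrial origin, fell most at 24 h. It was at 81.5, 86.3 and 85.3 CPM in GSK591 libraries and 100, 101 and 106 CPM in vehicle libraries. All 3 GSK591 values were below all vehicle values, and the log2 fold change was -0.28 ± 0.03 (SE; edgeR's quasi-likelihood adjusted p = 8.5e-06). MRPS21, the homologue of bacterial S21, averaged 56.5 ± 1.25 CPM in GSK591 cells and 63.8 ± 2.39 CPM in vehicle cells, a log2 fold change of -0.17. MRPS16, the homologue of bacterial S16, was at 149 ± 3.54 CPM in GSK591 cells and 163 ± 2.21 CPM in vehicle cells, a log2 fold change of -0.13. The other members that fell were MRPL21 (-0.17), MRPL33 (-0.15) and MRPS11 (-0.12). Each of these 3 calls was lost when some single libraries were left out: for MRPL21 without GSK591 replicate 3 or vehicle replicate 2 (adjusted p up to 0.071), for MRPL33 without GSK591 replicate 1 or 3 or vehicle replicate 1 (up to 0.099), and for MRPS11 without GSK591 replicate 1 or 3 or vehicle replicate 1 or 2 (up to 0.14).

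MRPL48, a mitochondria-specific large-subunit protein, rose most at 24 h. Its libraries were at 55.2, 55.5 and 57 CPM with GSK591 and at 50.1, 50.2 and 48.4 CPM with vehicle, with no overlap. The log2 fold change was 0.18 ± 0.03 (SE; edgeR's quasi-likelihood adjusted p = 0.00085). MRPS34, a mitochondria-specific small-subunit protein, was at 99.2 ± 1.56 CPM in GSK591 cells and 91.3 ± 1.2 CPM in vehicle cells (log2 fold change 0.12). MRPS27 was at 280 ± 6.13 CPM in GSK591 cells and 258 ± 3.15 CPM in vehicle cells, also 0.12. MRPL54 was at 31.6 ± 0.568 CPM in GSK591 cells and 29.3 ± 0.556 CPM in vehicle cells (0.11), and its call was lost under 11 of 13 other settings, with adjusted p between 0.024 and 0.42 over all of them and between 0.072 and 0.17 when any 1 library was left out.

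By 96 h lower levels were common in both subunits. With GSK591, 22 of 49 MRPL and 15 of 28 MRPS members fell, and 1 MRPL and 2 MRPS members rose. The background at 96 h, over 13514 genes, was 40.2% called (20.7% higher, 19.6% lower), against 3.90% higher and 48.1% lower among the members. The median log2 fold change was -0.14 for MRPL and -0.20 for MRPS members, against 0.00 for all genes tested. The 3 GSK591 values lay below all vehicle values for 33 MRPL and 18 MRPS members (29.7% of all genes) and above them for 2 of each (25% of all genes), where 54.6% of all genes did not overlap in either direction. The counts at 96 h depended on single libraries: 24 members were lower without GSK591 replicate 1 and also without vehicle replicate 2, where 1644 and 1652 of all genes were lower, against 2645 with all libraries. Without both libraries numbered 2, 42 members were lower and 8 higher, where 4102 of all genes were lower and 4099 higher. Of the 37 members that fell, 22 were called under every setting run, and 2 of the 3 that rose were.

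**Figure D2:**
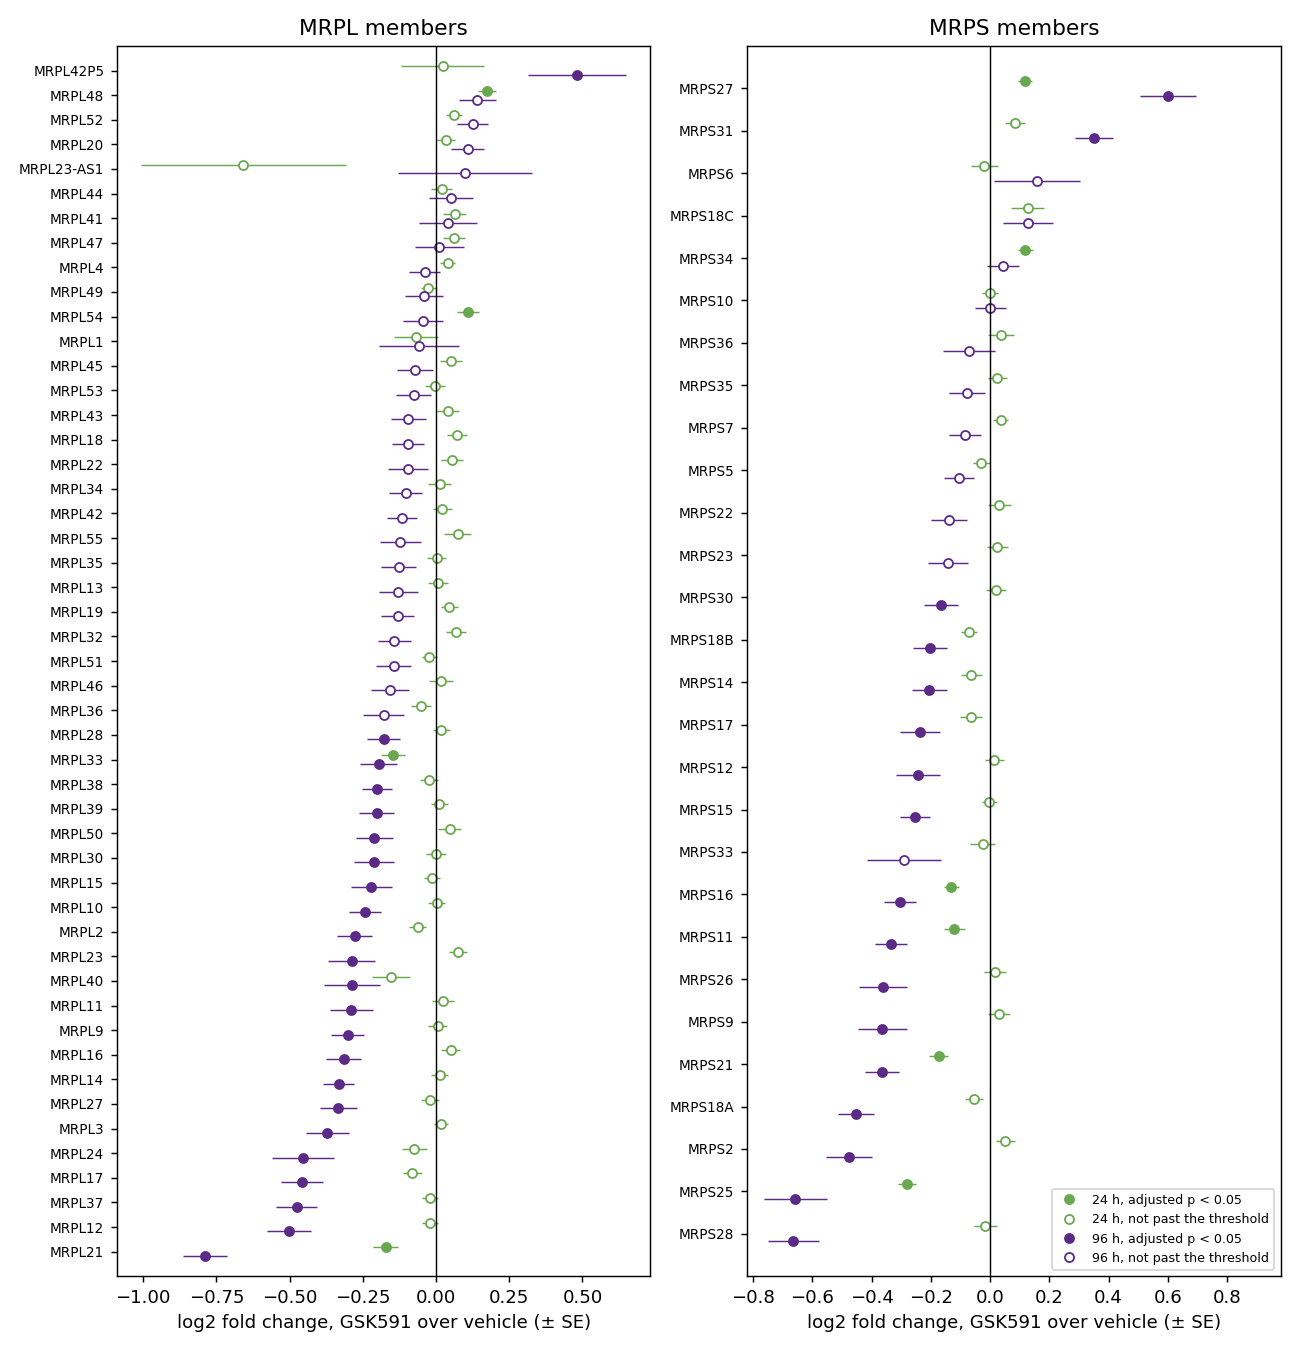
Log2 fold change of every member, GSK591 over vehicle, with its standard error, at 24 h (green) and 96 h (purple), ordered by the value at 96 h within MRPL (left) and MRPS (right). Filled points are past an adjusted p of 0.05. Most purple points lie left of 0, with MRPL21 at -0.79 and MRPS28 at -0.66 lowest, and MRPS27 highest at 0.60.

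MRPL21, the homologue of bacterial L21, fell most. It was at 13.6, 15.3 and 14.0 CPM in GSK591 libraries and 24.1, 26.4 and 24.7 CPM in vehicle libraries at 96 h. No GSK591 value came near a vehicle value, and the fold was 0.578 (log2 fold change -0.79 ± 0.08 SE, edgeR's quasi-likelihood adjusted p = 0.00041). MRPS28, which descends from bacterial S1, was at 15.8, 18.6 and 18.5 CPM with GSK591 and 26.8, 30.6 and 27.6 CPM with vehicle. Here too the groups were apart, with a log2 fold change of -0.66 ± 0.09 (SE, adjusted p = 0.0012). At 24 h MRPS28 had been at 32.5 ± 1.47 CPM in GSK591 cells and 32.9 ± 0.683 CPM in vehicle cells.

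MRPS25, lower at 24 h as well, was at 55.5, 73.7 and 56.4 CPM in GSK591 libraries and 98.3, 101 and 97.2 CPM in vehicle libraries at 96 h. GSK591 replicate 2 was the highest of its group and still below every vehicle library. The log2 fold change was -0.66 ± 0.11 (SE; edgeR's quasi-likelihood adjusted p = 0.0026). Exons of MRPS25 overlap those of NR2C2 on the opposite strand, and without a stated strand setting reads of the pair cannot be told apart. Such overlaps with another annotated gene were found for 33 of the 75 coding members. Besides MRPS25 they included MRPL12, MRPL23, MRPL37, MRPS2, MRPS11, MRPS16, MRPS18A, MRPS18C and MRPS28.

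MRPL12, the stalk protein that recruits translation factors and is also known to bind the mitochondrial RNA polymerase, was at 39.9, 47.6 and 45.8 CPM in GSK591 libraries and 60.8, 65.5 and 64.6 CPM in vehicle libraries at 96 h. The groups were separate, and the log2 fold change was -0.50 ± 0.07 (SE; edgeR's quasi-likelihood adjusted p = 0.0019). MRPL37, mitochondria-specific, averaged 68.3 ± 5.13 CPM in GSK591 cells and 96.0 ± 5.68 CPM in vehicle cells (log2 fold change -0.48). MRPS2, the homologue of bacterial S2, averaged 33.0 ± 2.90 CPM in GSK591 cells and 46.4 ± 2.74 CPM in vehicle cells (-0.48). MRPL17 and MRPL24, whose bacterial counterparts lie at the exit of the peptide tunnel, were at 37.3 ± 2.28 and 21.8 ± 3.06 CPM in GSK591 cells and at 51.8 ± 4.10 and 30.3 ± 2.26 CPM in vehicle cells, log2 fold changes of -0.46 and -0.45. These 5 calls held under all 15 other settings.

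Other members that fell are given by their place in the ribosome, a grouping made after the values were seen. Around the peptidyl transferase centre, MRPL3 was at 63.8, 69.8 and 64.1 CPM in GSK591 libraries and 82.2, 94.9 and 81.4 CPM in vehicle libraries (log2 fold change -0.37 ± 0.07 SE), with no overlap. MRPL27 was at 26.3 ± 1.69 CPM in GSK591 cells and 33.5 ± 0.711 CPM in vehicle cells (-0.33), MRPL16 at 32.3 ± 1.82 CPM in GSK591 cells and 40.7 ± 0.908 CPM in vehicle cells (-0.32), and MRPL2 had a log2 fold change of -0.28. At the base of the stalk that carries MRPL12, MRPL10 was at 47.1, 49.0 and 49.4 CPM in GSK591 libraries and 56.8, 60.7 and 56.6 CPM in vehicle libraries (-0.24 ± 0.05 SE), and MRPL11 had a log2 fold change of -0.29. In the small subunit, MRPS9 was at 18.7 ± 1.51 CPM in GSK591 cells and 24.4 ± 1.90 CPM in vehicle cells (-0.36), the mitochondria-specific MRPS26 at 26.0 ± 2.60 CPM in GSK591 cells and 33.8 ± 1.24 CPM in vehicle cells (-0.36), and MRPS12, of the decoding centre, had a log2 fold change of -0.24. The smallest falls that were called were those of MRPL28 (-0.18) and MRPS30 (-0.17). The MRPL28 call was lost without GSK591 replicate 1 or vehicle replicate 1 or 3 (adjusted p up to 0.13). Leaving out vehicle replicate 2 ended the calls of MRPL11 (adjusted p up to 0.056) and MRPS12, and the MRPS12 call was also lost without GSK591 replicate 1 or vehicle replicate 3 (up to 0.10). A further 12 members fell, with log2 fold changes between -0.33 and -0.20: MRPL9, MRPL14, MRPL15, MRPL23, MRPL30, MRPL38, MRPL39, MRPL40, MRPL50, MRPS14, MRPS15 and MRPS17. The calls of MRPL9, MRPL14 and MRPS15 held without any single library, and the other 9 were each lost without at least 1 (adjusted p up to 0.10).

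MRPS27 and MRPS31 were the coding members that rose. MRPS27 was at 434, 323 and 403 CPM in GSK591 libraries and 262, 252 and 258 CPM in vehicle libraries at 96 h. The lowest GSK591 value, of replicate 2, was above every vehicle value, and the log2 fold change was 0.60 ± 0.09 (SE; edgeR's quasi-likelihood adjusted p = 0.0023). MRPS31, another mitochondria-specific small-subunit protein, was at 60.7, 52.1 and 60.8 CPM in GSK591 libraries and 45.8, 46.5 and 45 CPM in vehicle libraries. Its groups were also apart, with a log2 fold change of 0.35 ± 0.06 (SE, adjusted p = 0.0041). Both calls held under all 15 other settings, with log2 fold changes between 0.51 and 0.70 for MRPS27 and between 0.31 and 0.42 for MRPS31. The pseudogene MRPL42P5 was at 1.93, 2.21 and 1.61 CPM in GSK591 libraries and 1.51, 1.24 and 1.36 CPM in vehicle libraries, with no overlap. Its log2 fold change of 0.48 passed the threshold (adjusted p = 0.046), but the call was lost when any single library other than GSK591 replicate 3 was left out (adjusted p up to 0.13), and reads of its parent gene MRPL42 (59.7 ± 1.85 CPM with GSK591, 65.4 ± 2.47 CPM with vehicle) could be counted in it.

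**Figure D3:**
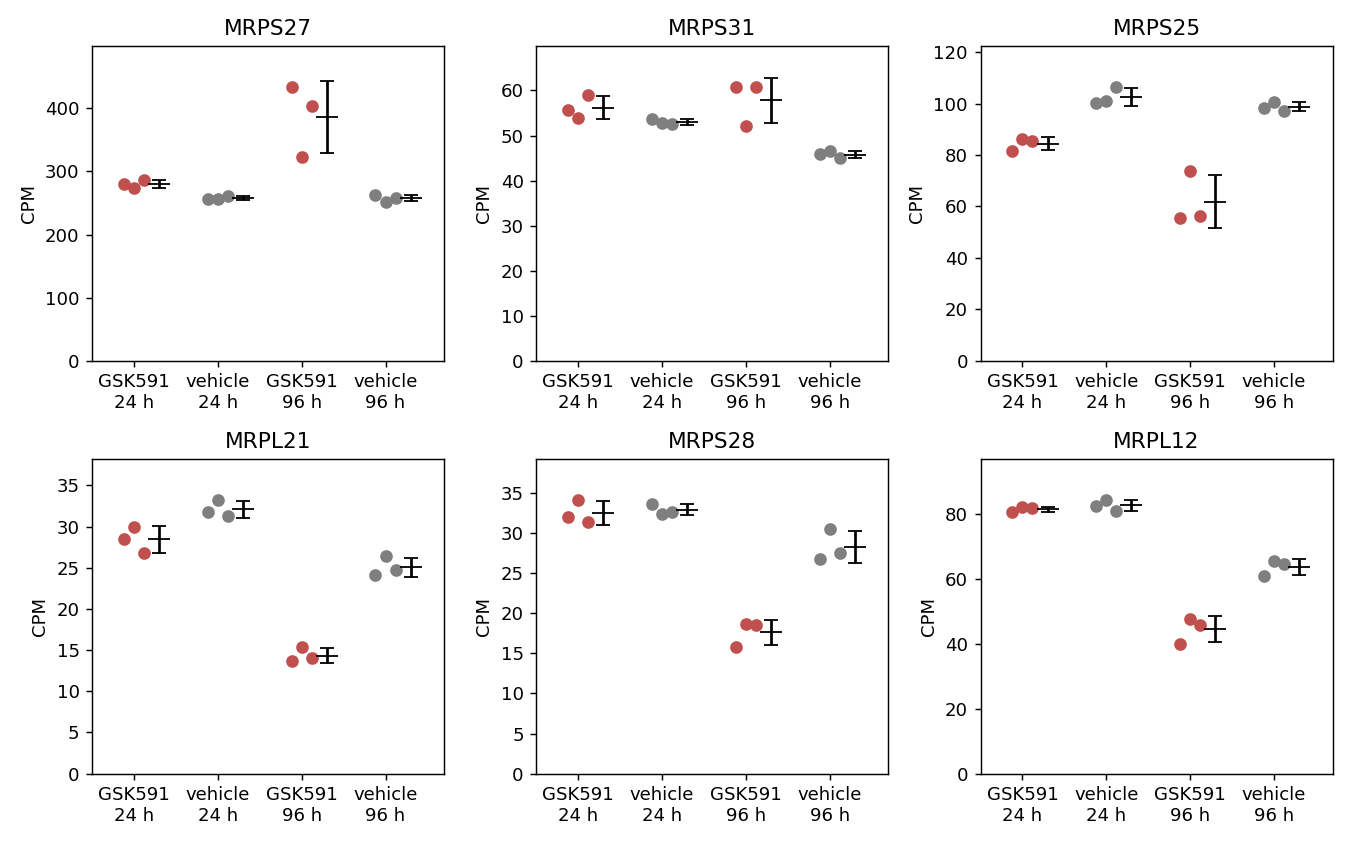
CPM of 6 members in each library, with the mean ± SD of the 3 libraries of a group. At 96 h the GSK591 libraries lie above the vehicle libraries for MRPS27 and MRPS31 and below them for MRPS25, MRPL21, MRPS28 and MRPL12, without overlap.

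Several names do not match the place of the protein in structures of the human mitochondrial ribosome. MRPS18A and MRPS30 sit in the large subunit, and MRPS36 belongs to the 2-oxoglutarate dehydrogenase complex. MRPS18A was at 44.3, 48.7 and 49.8 CPM in GSK591 libraries and 64.6, 68.0 and 65 CPM in vehicle libraries at 96 h. The groups did not overlap, and it fell by 0.45 on the log2 scale (SE 0.06; edgeR's quasi-likelihood adjusted p = 0.0013). Its paralogs differed in value: MRPS18B was at 155 ± 4.37 CPM in GSK591 cells and 180 ± 11.1 CPM in vehicle cells (log2 fold change -0.20, called), and MRPS18C at 10.6, 9.55 and 11.4 CPM in GSK591 libraries and 9.88, 9.57 and 9.59 CPM in vehicle libraries (log2 fold change 0.13 ± 0.09, not called). The call of MRPS18B was lost without GSK591 replicate 1 or 3 or vehicle replicate 2 (adjusted p up to 0.074). Whether the 3 paralogs differ from each other was not tested. MRPS30 was at 35.4 ± 0.311 CPM in GSK591 cells and 40.1 ± 2.07 CPM in vehicle cells (log2 fold change -0.17), a call that was lost when any single library other than GSK591 replicate 2 was left out (adjusted p up to 0.13). MRPS36 was at 23.4 ± 2.99 CPM in GSK591 cells and 24.8 ± 0.351 CPM in vehicle cells and was not called. Counted by place in structures, 24 of 49 large-subunit genes fell. None was called higher by edgeR or DESeq2, and 1 was higher at an unadjusted p under 0.05. Of 25 small-subunit genes, 13 fell and 2 rose, beside 19.6% lower and 20.7% higher over all genes.

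Divided by origin, 27 of 44 coding members with a bacterial homologue fell at 96 h (61.4%), with a median log2 fold change of -0.23. Over all genes at that time, 19.6% were called lower and 20.7% higher. None of these 44 was called higher by edgeR or DESeq2, nor at an unadjusted p under 0.05, which 50.4% of all genes reached in either direction. Of 31 mitochondria-specific coding members, 10 fell and 2 rose, MRPS27 and MRPS31, with a median of -0.12. The 31 include MRPS36, which is in neither subunit and was not called at 24 h or 96 h. The same split held within each subunit as a description: 17 of 29 large and 10 of 15 small members with a bacterial homologue fell, against 7 of 20 large and 3 of 10 small mitochondria-specific ones. At 24 h, 5 of the 44 with a bacterial homologue fell and none was called higher in edgeR or DESeq2 (3 higher at an unadjusted p under 0.05 in edgeR), and 4 of the 31 mitochondria-specific members rose and 1, MRPS25, fell, beside 7.44% higher and 7.29% lower over all genes; none of these calls held in the fit of all 12 libraries. The division was made with results of these data known, and the difference between the classes was not tested.

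Other members missed the threshold. Among coding MRPL members, 25 of 47 were not called at 96 h, with log2 fold changes between -0.18 (MRPL36) and 0.14 (MRPL48). MRPL45, which anchors the ribosome at the inner membrane, had a log2 fold change of -0.07. Among MRPS members 11 were not called, and MRPS33 had a log2 fold change of -0.29 ± 0.12 (SE), with 19.5, 24.8 and 22.8 CPM in GSK591 libraries and 26.9, 32.6 and 23.7 CPM in vehicle libraries. MRPS10 and MRPL4, homologues of bacterial S10 and L4, were at 80.9 ± 2.90 and 95.9 ± 2.29 CPM in GSK591 cells and at 81.7 ± 3.48 and 99.4 ± 4.55 CPM in vehicle cells. MRPL52 was at 65.6, 70.9 and 70.4 CPM in GSK591 libraries and 63.9, 63.4 and 64.3 CPM in vehicle libraries; the groups did not overlap, yet its log2 fold change of 0.12 was not past the threshold (edgeR's quasi-likelihood adjusted p = 0.086). MRPL1, the least abundant coding member, was at 4.95 ± 0.660 CPM in GSK591 cells and 5.19 ± 0.708 CPM in vehicle cells at 96 h. A p that misses the threshold does not show that these levels were equal.

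The effect at 96 h minus that at 24 h was tested in all 12 libraries. It was negative and past the threshold for 20 MRPL and 12 MRPS members and positive for 2 MRPS members, MRPS27 and MRPS31. For MRPL members no positive difference was called by edgeR or DESeq2, nor at an unadjusted p under 0.05. Over all genes, 37.7% reached that unadjusted p in either direction. The background of this difference, over 13665 genes, was 24.1% called (11% higher, 13.2% lower). The median difference was -0.18 for MRPL, -0.18 for MRPS and -0.01 for all genes. The largest differences were those of MRPS28 (-0.66 ± 0.09 SE), MRPL21 (-0.63 ± 0.08) and MRPS2 (-0.54 ± 0.09), each with an adjusted p of 0.0012 or below in edgeR's quasi-likelihood test. MRPS27 had 0.47 ± 0.11 (adjusted p = 0.0078), and MRPS31 0.25 ± 0.08 (adjusted p = 0.034), a call lost when any of 10 single libraries was left out (up to 0.094). The members with a negative difference numbered 20 without GSK591 replicate 2 of 24 h, 21 without vehicle replicate 3 of 24 h and 21 without GSK591 replicate 1 of 96 h. Over all genes, 1090, 1159 and 1271 were lower in these settings, in this order, against 1799 with all libraries.

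Some members were called at both times in the same direction, from libraries that the times do not share. All 6 members that fell at 24 h were among the 37 that fell at 96 h: MRPL21, MRPL33, MRPS11, MRPS16, MRPS21 and MRPS25. MRPS27 was the 1 of 4 rising members at 24 h that was among the 3 rising at 96 h. Over all genes tested at both times, 64.0% of those that fell at 24 h also fell at 96 h, and 68.2% of those that rose also rose. The 6 members were 16.2% of the 37, and over all genes the shared falls were 23.3% of those at 96 h. Across the 77 members the log2 fold changes of the times had a Pearson r of 0.31 and a Spearman rho of 0.51, beside 0.43 and 0.47 across 13091 genes tested at both times. Pearson r was 0.14 for MRPL and 0.63 for MRPS members, and Spearman rho was 0.44 and 0.57. The MRPL values include the antisense RNA MRPL23-AS1, under 1 CPM at 24 h, with log2 fold changes of -0.66 at 24 h and 0.10 at 96 h. Whether the subunits differ in this was not tested. The effects had the same sign at both times in 41 of the 77 members (53.2%), against 67.8% of all genes. For MRPL33, the homologue of bacterial L33, the log2 fold changes were -0.15 at 24 h and -0.20 at 96 h, and the difference of -0.06 was not past the threshold (edgeR's quasi-likelihood adjusted p = 0.54).

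**Figure D4:**
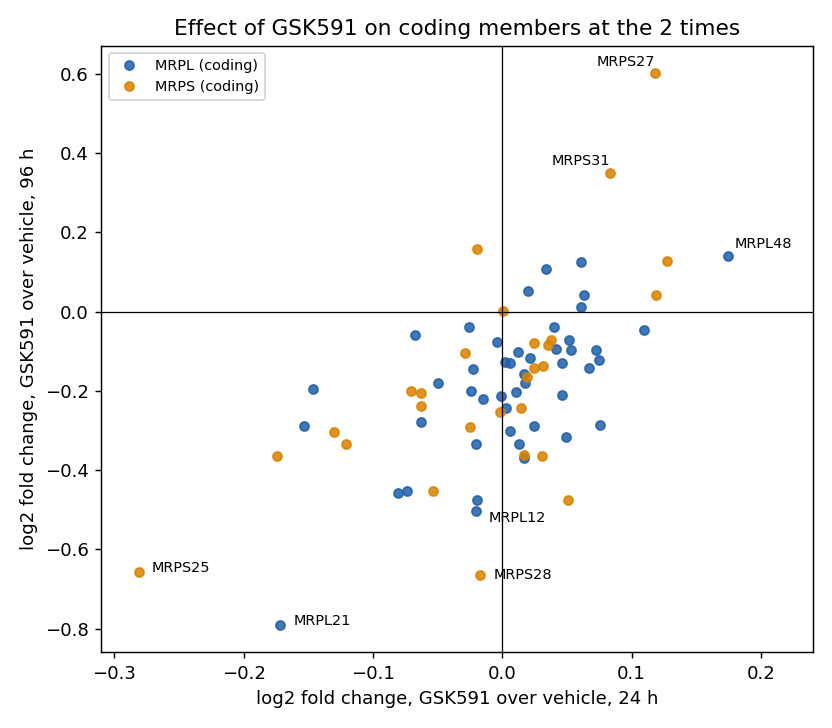
Log2 fold change of GSK591 over vehicle for the 75 coding members, at 24 h on the x axis and at 96 h on the y axis, on different scales. Points are genes, blue for MRPL and orange for MRPS. MRPS25 and MRPL21 are low on both axes, MRPS27 is high on both, and MRPS28 and MRPL12 are near 0 at 24 h.

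Vehicle cells at 96 h also differed from vehicle cells at 24 h. Of the members, 27 MRPL and 18 MRPS were lower at 96 h and 1 of each was higher, where 47.7% of 13665 genes were called, 24.2% higher and 23.5% lower. The median log2 difference, 96 h over 24 h, was -0.17 for MRPL, -0.20 for MRPS and 0.01 for all genes. Time cannot be told apart from anything else that differs between the count tables of the times. By library size alone, the members were 5 higher and 36 lower, beside 4167 genes higher and 2503 lower overall. MRPL1 was at 5.19 ± 0.708 CPM in vehicle cells at 96 h and 9.61 ± 1.05 CPM in vehicle cells at 24 h, a log2 difference of -0.89 ± 0.12 (SE; edgeR's quasi-likelihood adjusted p = 3.5e-05). MRPL12 was at 63.6 ± 2.48 CPM at 96 h and 82.5 ± 1.66 CPM at 24 h (-0.38). After MRPL1, the lowest log2 differences among coding members were those of MRPL15 (-0.49), MRPL4 (-0.48), MRPS17 (-0.47) and MRPL27 (-0.44), all called. MRPS27, at 257 ± 4.91 CPM at 96 h and 258 ± 3.15 CPM at 24 h, was not called, nor was MRPS25, at 98.7 ± 1.77 CPM at 96 h and 102 ± 3.40 CPM at 24 h. The members that were higher were MRPS36, with a log2 difference of 0.27, and MRPL23-AS1, which met the expression rule only through its 96 h libraries.

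MRPL23-AS1, whose exons overlap those of MRPL23 on the opposite strand, was at 1.67, 1.51 and 1.80 CPM in vehicle libraries at 96 h and 0.190, 0.267 and 0.292 CPM in vehicle libraries at 24 h. The log2 difference was 2.73 ± 0.27 (SE). MRPL23-AS1 was under 1 CPM in every library of 24 h, so it became a member only through its 96 h libraries. The member rule thus favoured a rise from 24 h to 96 h, and no p-value is given for it. GSK591 libraries were at 1.19, 2.36 and 1.67 CPM at 96 h and 0.192, 0.161 and 0.119 CPM at 24 h, and neither effect of GSK591 was past the threshold. MRPL23 itself was at 54.8 ± 4.81 CPM in GSK591 cells and 67.6 ± 5.24 CPM in vehicle cells at 96 h, and at 87.7 ± 1.93 CPM in GSK591 cells and 83.3 ± 3.35 CPM in vehicle cells at 24 h. Without a stated strand setting, reads of this pair cannot be told apart.

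The remaining mitochondrial ribosomal proteins, which carry other names, gave 3 of 7 genes lower at 96 h (42.9%), beside 19.6% of all genes. DAP3, a GTP-binding small-subunit protein, was at 105 ± 3.03 CPM in GSK591 cells and 134 ± 10.3 CPM in vehicle cells (log2 fold change -0.34 ± 0.06 SE, edgeR's quasi-likelihood adjusted p = 0.0043). AURKAIP1 had a log2 fold change of -0.19, and ICT1, a ribosome rescue factor built into the large subunit, of -0.21, both called. Of 26 genes for mitoribosome assembly and ribosomal RNA modification, 8 fell (30.8%) and 1 rose (3.85%), beside 19.6% lower and 20.7% higher over all genes. TFB1M, which dimethylates the small-subunit RNA, was at 12.7 ± 1.02 CPM in GSK591 cells and 20.1 ± 1.61 CPM in vehicle cells (log2 fold change -0.64 ± 0.09 SE, adjusted p = 0.0017). RPUSD3, a pseudouridine synthase family member, had a log2 fold change of -0.49 at 96 h and -0.18 at 24 h, both called.

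Of 16 translation factor and mRNA stability genes, 5 fell (31.2%) and 2 rose (12.5%) at 96 h, beside 19.6% lower and 20.7% higher over all genes. MTRF1, a release factor family member, rose to 55.4 ± 3.44 CPM in GSK591 cells, against 33.8 ± 1.88 CPM in vehicle cells (log2 fold change 0.72 ± 0.07 SE, edgeR's quasi-likelihood adjusted p = 0.00038). MRRF, the recycling factor, fell (-0.30). Of 20 mitochondrial aminoacyl-tRNA synthetase genes, 7 fell (35%) and 1 rose (5%). MARS2, which charges the mitochondrial methionine tRNA, was among those that fell (-0.40). Of 8 genes for transcription and replication of mitochondrial DNA, 1 rose and none was called lower by edgeR or DESeq2, nor at an unadjusted p under 0.05. The gene that rose was POLG, the DNA polymerase, at 136 ± 2.73 CPM in GSK591 cells and 94.0 ± 3.38 CPM in vehicle cells (log2 fold change 0.55 ± 0.05 SE, adjusted p = 0.00039); POLG2, its accessory subunit, was not called. Of 9 tested regulators of mitochondrial biogenesis, 2 rose and 2 fell (22.2% each), near the shares over all genes, among them GABPA, an ETS factor, at 109 ± 7.16 CPM in GSK591 cells and 92.7 ± 0.560 CPM in vehicle cells (0.24), and MYC at 251 ± 25.9 CPM in GSK591 cells and 341 ± 28.7 CPM in vehicle cells (-0.43).

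Beside these, 14 of 82 cytosolic ribosomal protein genes fell at 96 h, with a median log2 fold change of -0.12, and DESeq2 called 22 of them lower. Of 81 nuclear genes for the respiratory chain and ATP synthase, 37 fell, with a median of -0.15. No gene of either list was called higher by edgeR or DESeq2 at 96 h alone, and at an unadjusted p under 0.05 there was 1, of the respiratory list. The shares lower were 44.9% of MRPL and 53.6% of MRPS members, 45.7% of respiratory genes and 17.1% of cytosolic ribosomal protein genes, beside the 19.6% of all genes given above. In the fit of all 12 libraries the shares lower were 59.2% of MRPL and 67.9% of MRPS members, 64.2% of respiratory genes and 52.4% of cytosolic ribosomal protein genes (43 of 82), beside 28.3% of all genes, and 1 respiratory gene was higher. The mean log2 difference from vehicle in GSK591 replicates 1, 2 and 3 at 96 h was -0.23, -0.23 and -0.14 for MRPL, -0.22, -0.22 and -0.14 for MRPS, and -0.24, -0.14 and -0.09 for cytosolic ribosomal protein genes. No difference between these lists was tested.

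**Figure D5:**
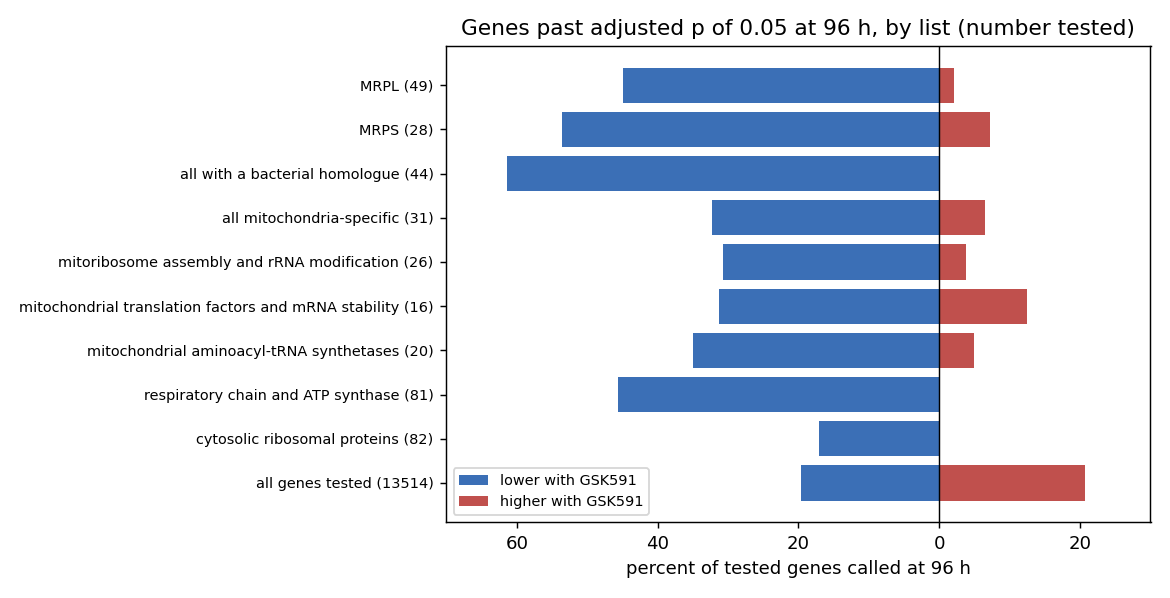
Percent of tested genes called at 96 h in each list, lower with GSK591 to the left of 0 and higher to the right, with the number tested in brackets. The bar to the left reaches 44.9% for MRPL, 53.6% for MRPS and 19.6% for all genes tested.

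At a false discovery rate under 0.05 the authors' deposited table lists 1 MRPL member higher and 18 lower, and 2 MRPS members higher and 12 lower, at 96 h, where 22.8% of its 23368 rows are past that rate. At 24 h the authors' deposited table lists 1 MRPL member higher and 3 lower, and 2 MRPS members higher and 5 lower, where 7.75% of its rows are past that rate. These rows include symbols with too few counts to be tested here, where 13514 genes were tested at 96 h and 13173 at 24 h. The members were chosen by expression, so the shares over all rows are not a like background for them.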

How the data were processed

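Each time has its own table of raw read counts by gene symbol, deposited by the authors, who also deposited log2 fold changes, log2 CPM, p-values and false discovery rates, per the file headers. The submitters' processing notes name STAR, HTSeq, edgeR and the build hg19 (GRCh37). Versions, annotation and strand setting: not given in the sources used here. Libraries were poly(A) TruSeq, per the labels' protocols. The members, gene lists and classes were chosen with earlier results of these data known.

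Each time was fitted with its 6 samples in edgeR 4.0.16 (R 4.3.3) after filterByExpr and TMM scaling, with the quasi-likelihood test, two-sided, and Benjamini-Hochberg adjustment over all genes tested; "called" means an adjusted p under 0.05. The difference between times and the vehicle comparison came from 1 fit of all 12 samples. Printed CPM values are TMM-scaled over all 12 libraries, from the deposited counts, and a standard error is the log2 fold change divided by the root of F. Exon lengths and overlaps came from GENCODE v29 (GRCh38), matched by symbol for 75 members; promoter windows came from RefSeq. Scripts were tested on simulated data. Named members were the largest called, non-overlapping changes of each comparison, members called against the majority, the 3 highest and 3 lowest in level, MRPS18A, MRPS18B, MRPS18C, MRPS30 and MRPL12; of other lists, the 2 smallest p at 96 h. Every other member or gene named was added after its values were seen. Alternatives were other scalings, DESeq2 1.42.0, other filters, a thinned deep library, a replicate block, left-out libraries and other member definitions. Genes of the mitochondrial genome were not analysed here.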

Additional observations from a re-analysis of the deposited data

Results flagged for a closer look

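The effect of GSK591 differed between 96 h and 24 h, by a test of that difference in edgeR's quasi-likelihood fit of all 12 libraries, for 34 members in all. Among the named members the log2 difference, 96 h minus 24 h, was -0.66 for MRPS28, -0.63 for MRPL21, -0.54 for MRPS2, -0.49 for MRPL12, -0.47 for MRPL37, -0.41 for MRPS18A, -0.39 for MRPS25, -0.39 for MRPL24 and -0.39 for MRPL17. It was -0.20 for MRPS21, -0.20 for MRPS30 and -0.19 for MRPS16. Of 20 other settings, the call was lost in 9 for MRPS30, in 8 each for MRPL24 and MRPS25, and in 7 each for MRPS21 and MRPS16. It was positive for MRPS31, at 0.25, lost in 10 of those settings, and MRPS27, at 0.47. Over all genes tested 24.1% passed the same threshold.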

How the results depend on the processing

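At 24 h the counts were 2 MRPL higher and 2 lower, and 2 MRPS higher and 4 lower. The MRPL count higher was 1 with library size alone, DESeq2, no filter or at least 5 CPM in 3 samples, the MRPL count lower was 1 with DESeq2, and all 4 counts were 0 in 1 fit of all 12 samples. The median log2 fold change of MRPS members was -0.010 with library size alone. Leaving out 1 library gave 1 to 2 MRPL higher, 0 to 3 MRPL lower, and an MRPS median of -0.010 to 0.012. At 96 h the MRPL count higher, 1 (MRPL42P5), was 0 with library size alone, DESeq2, no filter, at least 5 CPM, the deep vehicle library thinned, or without pseudogene and antisense symbols. It was 2 in the fit of 12 samples and 4 without both libraries numbered 2, where the MRPS count higher was also 4. Leaving out 1 library gave 0 to 1 MRPL higher and 14 to 23 MRPL lower at 96 h, and 1 to 3 MRPS higher and 6 to 14 MRPS lower in the difference between times. No named member turned its direction while called. The cause was not tested.

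The main fits did not use the replicate numbers. Same-numbered deviations correlated at 0.005, 0.105 and 0.008 at 24 h and 0.269, 0.245 and 0.009 at 96 h. Differently numbered ones correlated between -0.055 and 0.048 at 24 h and between -0.333 and 0.222 at 96 h. Whether the replicate numbers pair the samples was not tested. With the replicate block, 6 members were higher and 8 lower at 24 h, beside 1442 and 1369 of all genes. At 96 h they were 3 and 39, beside 3190 and 3103 of all genes. In the difference between times they were 2 and 38, beside 2010 and 2311 of all genes. Settings for the vehicle comparison, and the difference between times without both libraries numbered 2 (3 higher, 41 lower), were added after seeing the data. In that last setting 2815 of all genes were higher and 3207 lower.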
